A study of Nicotiana benthamiana with 6 samples.

Results

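Berberine bridge enzyme-like (BBE-like) oxidases were measured as 27 of the 167935 unigenes assembled from *Nicotiana benthamiana* leaves. The members are BBE22 (c92405_g2_i1) and every other unigene whose best NR protein came from *Nicotiana* or *Solanum* and whose UniProt name held berberine bridge enzyme, reticuline oxidase or tetrahydrocannabinolic acid synthase. BBE22 was chosen by its fold change between these same libraries, for which the study singled it out, so its values are given as a description with no test. The other 26 members were taken by name and species alone. RNA was sequenced from wild-type plants, 5 weeks old, whose leaves were infiltrated with *Agrobacterium tumefaciens* LBA4404 and harvested 3 days later. In the overexpression group the bacteria carried pCAMBIA2200::*MaWRKY45*, the coding sequence of a banana WRKY transcription factor under the CaMV35S promoter, and in the mock group they carried pCAMBIA2200 without an insert. Both groups therefore received *Agrobacterium* and the vector, and the expression was transient and driven by a constitutive promoter. Each group has 3 libraries, each made from the pooled RNA of 3 plants.

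BBE-like proteins are flavoenzymes, many of them secreted, that hold a covalently bound FAD and oxidise an alcohol or amine substrate. Many of them, but not all, pass the electrons to oxygen, which gives hydrogen peroxide. The family is named after the poppy enzyme (reticuline oxidase) that closes the berberine bridge of benzylisoquinoline alkaloids, and it includes the cannabinoid synthases of *Cannabis*. In *Arabidopsis*, BBE22 oxidises cellulose fragments, BBE1, BBE2 and BBE21 oxidise pectin fragments and lower their activity as elicitors of immunity, and BBE15 oxidises monolignols, the building blocks of lignin. In tobacco, BBE-like proteins of the root act late in nicotine synthesis. A UniProt name below is the closest match of a unigene in the deposited annotation and does not show that the *N. benthamiana* protein has the same substrate.

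The 27 members were matched to 10 UniProt names and 20 different NR proteins, and their lengths ran from 204 to 3294 bases. The deposited Pfam column gave the FAD-binding domain FAD_binding_4 for 13 of them, the C-terminal domain BBE for 4, an unrelated domain for 1 and none for 9. An extracellular GO term was attached to 23 members, a cell wall term to 14 and a response to jasmonic acid to 4. Several unigenes have the same best NR protein and may be pieces of 1 transcript or close copies, which was not tested on their sequences. Among them, 3 unigenes of the cluster c56396 share 1 NR protein, c72292_g2_i1 and c72292_g5_i1 share another, and c97081_g1_i1 shares one with c99793_g3_i1. Reads from close copies could be split between them by the authors' counting, so their single values are uncertain. At least 1 count was found for 26 members, 18 had a count in all 6 libraries, and 15 passed edgeR's filter on low counts.

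Total counts ran from 12031310 to 14285138 per library, of which the members took 0.0345 to 0.0773%. The unigene matched to a banana WRKY protein, c147189_g1_i1, had 1617, 781 and 1455 counts in mock libraries 1, 2 and 3 and 3133, 4527 and 3615 in overexpression libraries 1, 2 and 3 (log2 fold change 1.46, edgeR adjusted p = 0.0181). This contig also matches a cloning vector and a cauliflower mosaic virus protein, so it holds more than the WRKY sequence, and which part of it the mock reads came from was not tested. The 37 unigenes of mesophyll markers (Rubisco small chain and chlorophyll a-b binding proteins) summed to 9130 to 29042 CPM (counts scaled to library size with edgeR's TMM factors) in mock and 5848 to 10322 CPM in overexpression, with 1 called higher and 6 lower of 25 tested. The 2 trichome marker unigenes summed to 2.92 to 5.21 and 3.61 to 5.86 CPM. Unigenes matched to yeasts summed to 725 to 1044 CPM in every mock library and to 27.7 to 92.7 CPM in every overexpression library, and 111 of the 126 tested were called lower. *Agrobacterium* unigenes summed to 8.08 to 15.0 CPM in mock and 13.3 to 14.4 CPM in overexpression, with 1 of the 2 tested called higher. The part of the mesophyll and yeast differences in the results below was not tested.

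Members changed in both directions. The levels of BBE22 and of both BBE28-matched unigenes with usable counts were higher in every overexpression library than in any mock library, the abundant BBE21-matched unigene fell, and most other members did not pass the test. A member was called where edgeR's quasi-likelihood test gave a Benjamini-Hochberg adjusted p under 0.05 over all 37201 tested unigenes and a fold change of at least 2. Of the 14 tested members other than BBE22, 2 were called higher, 1 was called lower and 11 were not called. That is 21.4% of them, beside 4.59% of all tested unigenes (1.92% higher and 2.67% lower). Over all tested unigenes 714 were called higher and 992 lower, a balance that turned to 932 higher and 749 lower when scaled by library size alone, with the same 3 members called. All 3 called members had counts well above the filter in both groups. The groups did not overlap in 6 of the 14, with 2 higher and 4 lower in overexpression, beside 22.9% of all tested unigenes (11.3% higher and 11.5% lower). Of the 4 lower, c56396_g2_i1 was only narrowly apart, with 2.16 CPM in mock library 2 against 2.12 CPM in overexpression library 2. In the deposited FPKM its groups overlapped (4.92 against 5.20 in the same libraries). The median log2 fold change was -0.23 over the 15 tested members and -0.38 without BBE22, beside -0.01 over all tested unigenes. As these are bulk samples, fewer cells of a type and less RNA per cell cannot be told apart.

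**Figure D1:**
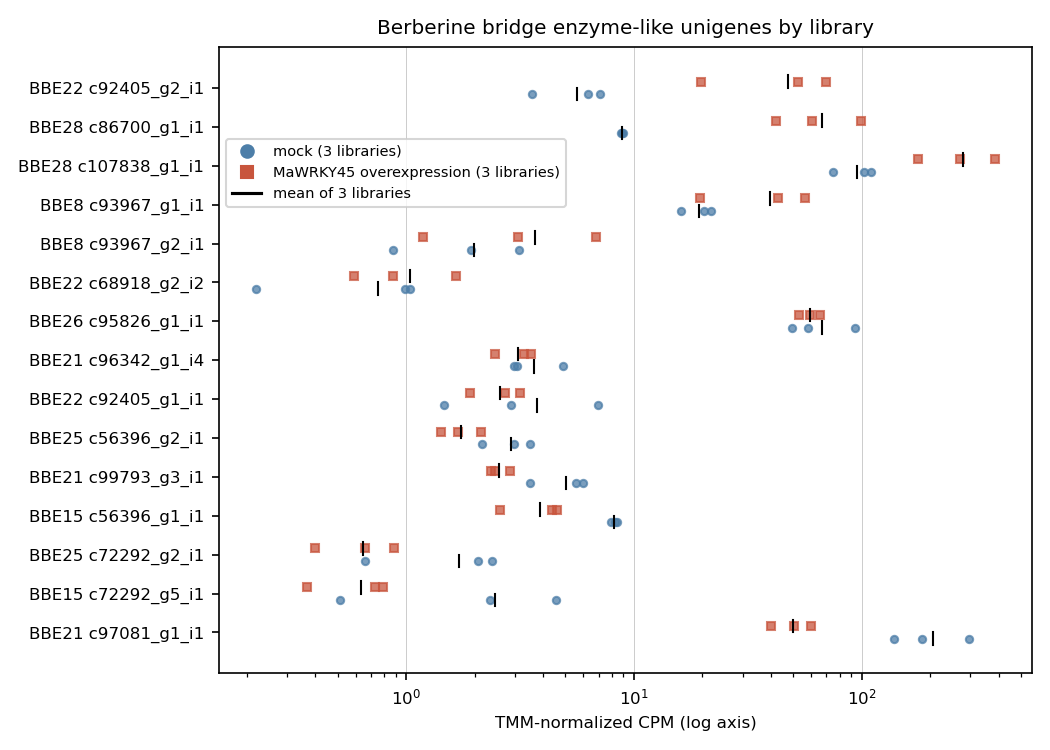
TMM-scaled CPM (log axis) of the 15 tested members in each of the 3 mock libraries (circles) and 3 overexpression libraries (squares), with the mean of each group as a black tick. The groups are apart for BBE22, both BBE28-matched unigenes, c97081_g1_i1, c99793_g3_i1, c56396_g1_i1 and, only narrowly, c56396_g2_i1, and overlap for the other 8.

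BBE22, the match of the *Arabidopsis* enzyme that oxidises cellulose fragments, had 49, 95 and 70 counts in mock libraries 1 to 3 and 663, 953 and 268 in overexpression libraries 1 to 3. These are 3.58, 7.07 and 6.29 CPM against 52.5, 69.8 and 19.8 CPM, so the lowest overexpression library still held more than the highest mock library, and overexpression 3 was well below the other overexpression libraries. The mean was 5.65 ± 1.83 CPM in mock and 47.4 ± 25.4 CPM in overexpression (SD, n = 3 each), a fitted difference of 3.07 on the log2 scale or 8.39-fold. Leaving out 1 library at a time moved the log2 fold change between 2.70 and 3.44. Its NR protein is a tetrahydrocannabinolic acid synthase-like protein of *Nicotiana sylvestris*, and it carries the GO terms for the cell wall and for the response to jasmonic acid.

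The other unigenes with a BBE22 match had overlapping groups. The unigene c92405_g1_i1, from the same assembly cluster and of nearly the same length (2001 bases, against 2039 for BBE22), had 20, 93 and 32 counts in mock and 24, 37 and 43 in overexpression, with a log2 fold change of -0.53 ± 0.51 (SE, edgeR adjusted p = 0.648). Its groups overlap fully, and leaving out mock library 2 turns its fold change to 0.27. For each count on c92405_g1_i1 there were 2.45, 1.02 and 2.19 counts on BBE22 in the mock libraries and 27.6, 25.8 and 6.23 in the overexpression libraries. The shorter c68918_g2_i2 had 3 to 14 counts in mock and 8 to 21 in overexpression (log2 fold change 0.48 ± 0.61, adjusted p = 0.746), and c68918_g1_i1 had 2, 3 and 11 against 7, 5 and 5 counts and was not tested.

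The largest tested rise was in c86700_g1_i1, matched to BBE28 and, by NR, to a cannabidiolic acid synthase-like protein. It had 121, 120 and 98 counts in mock and 760, 1355 and 572 in overexpression, which is 8.83, 8.94 and 8.80 CPM against 60.2, 99.2 and 42.2 CPM. The mock libraries were nearly equal and each overexpression library stood far above them. The log2 fold change was 2.92 ± 0.30 (SE, edgeR adjusted p = 0.00146), or 7.58-fold, and the unigene was called in every alternative fit, with an adjusted p of at most 0.0169.

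The second BBE28-matched unigene, c107838_g1_i1, was the most abundant member per length in overexpression. It had 1025, 1374 and 1224 counts in mock and 3422, 5257 and 2386 in overexpression (74.8, 102 and 110 CPM against 271, 385 and 176 CPM). The groups did not overlap, and overexpression library 3 was again the lowest of its group. The log2 fold change was 1.54 ± 0.28 (SE, edgeR adjusted p = 0.0142), a 2.90-fold rise. This call was lost without mock library 1 (adjusted p = 0.0828), without overexpression library 2 (0.0509) and against a null of 2-fold rather than none (0.379), while the fold change stayed between 1.24 and 1.78 on the log2 scale over the fits that leave out 1 library.

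BBE8 was matched by 2 unigenes of the cluster c93967, which differ in their NR protein. The longer, c93967_g1_i1, had 279, 216 and 242 counts in mock and 540, 772 and 265 in overexpression. In CPM these are 20.4, 16.1 and 21.7 against 42.8, 56.5 and 19.5, so overexpression libraries 1 and 2 lay above all mock libraries and overexpression 3 lay among them. Its log2 fold change of 1.03 ± 0.33 missed the test (edgeR adjusted p = 0.111) and passed it without overexpression library 3 (0.00682), with DESeq2 (0.0461) and with no filter on low counts (0.00127). The short c93967_g2_i1 had 12, 26 and 35 against 39, 93 and 16 counts (log2 fold change 0.91 ± 0.61, adjusted p = 0.490). Overexpression library 2 was the highest of its group and overexpression 3 the lowest in 8 of the 15 tested members: BBE22, both called BBE28-matched unigenes, both BBE8-matched unigenes and, among the members with lower values in overexpression, c97081_g1_i1, c99793_g3_i1 and c56396_g1_i1. The banana WRKY contig stood at 248, 332 and 267 CPM and the mesophyll markers at 10322, 7031 and 5848 CPM in overexpression libraries 1 to 3, and their part in this order was not tested.

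The unigene that fell was c97081_g1_i1, matched to the oligogalacturonide oxidase BBE21. It had 2509, 1853 and 3310 counts in mock and 637, 817 and 542 in overexpression, or 183, 138 and 297 CPM against 50.5, 59.8 and 40.0 CPM. Every overexpression library was below every mock library. The log2 fold change was -2.04 ± 0.29 (SE, edgeR adjusted p = 0.00458), a 4.11-fold fall, and the call held in all 15 alternative fits with an adjusted p of at most 0.0451. The unigene c99793_g3_i1, which shares its NR protein, had 82, 47 and 62 counts in mock and 31, 39 and 32 in overexpression. Its groups did not overlap, but its log2 fold change of -0.97 ± 0.31 did not pass the test (adjusted p = 0.111; 0.0352 without mock library 2). Summed as 1 protein, the pair had a log2 fold change of -2.0 ± 0.29 (adjusted p = 0.00472), in a fit chosen after seeing the data. The third BBE21 match, c96342_g1_i4, had 67, 40 and 34 against 31, 45 and 48 counts, with overlapping groups and a log2 fold change of -0.23 ± 0.32 (adjusted p = 0.774).

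Unigenes matched to the monolignol oxidase BBE15 and to BBE25 lay on the lower side without passing the test. The BBE15-matched c56396_g1_i1 had 116, 106 and 92 counts in mock and 55, 63 and 35 in overexpression, with groups that did not overlap and a log2 fold change of -1.09 ± 0.28 (edgeR adjusted p = 0.0523). It passed with DESeq2 (0.0384), with no filter (0.0209) and without mock library 2 (0.0485). The BBE25-matched c56396_g2_i1 had 48, 29 and 33 against 18, 29 and 23 counts, and c56396_g3_i1 had 7, 8 and 2 against 2, 3 and 0. Since the 3 share an NR protein, their counts were also summed, to 171, 143 and 127 in mock and 75, 95 and 58 in overexpression. This sum, formed after the single values were known, had a log2 fold change of -1.01 ± 0.24 and an adjusted p of 0.0434.

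The 5 unigenes of cluster c72292 together had 21, 117 and 65 counts in mock and 25, 28 and 23 in overexpression, of which c72292_g1_i1 had 3, 13 and 13 against 3, 6 and 5, c72292_g3_i1 2, 7 and 2 against 2, 3 and 0, and c72292_g4_i1 0, 4 and 1 against 5, 0 and 1. In the sum, mock library 1 lay below the overexpression libraries and the other mock libraries above them. Of these, c72292_g5_i1 (BBE15) had 7, 61 and 26 against 10, 10 and 5 counts, a log2 fold change of -1.95 ± 0.69 with an edgeR adjusted p of 0.150 (0.00365 with no filter). Its partner c72292_g2_i1 (BBE25) had 9, 32 and 23 against 5, 9 and 12 counts (log2 fold change -1.37 ± 0.55, adjusted p = 0.206). BBE26, in contrast, was matched by an abundant unigene with nearly level counts: c95826_g1_i1 had 675, 780 and 1044 in mock and 668, 897 and 806 in overexpression, a log2 fold change of -0.17 ± 0.24 (adjusted p = 0.772).

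**Figure D2:**
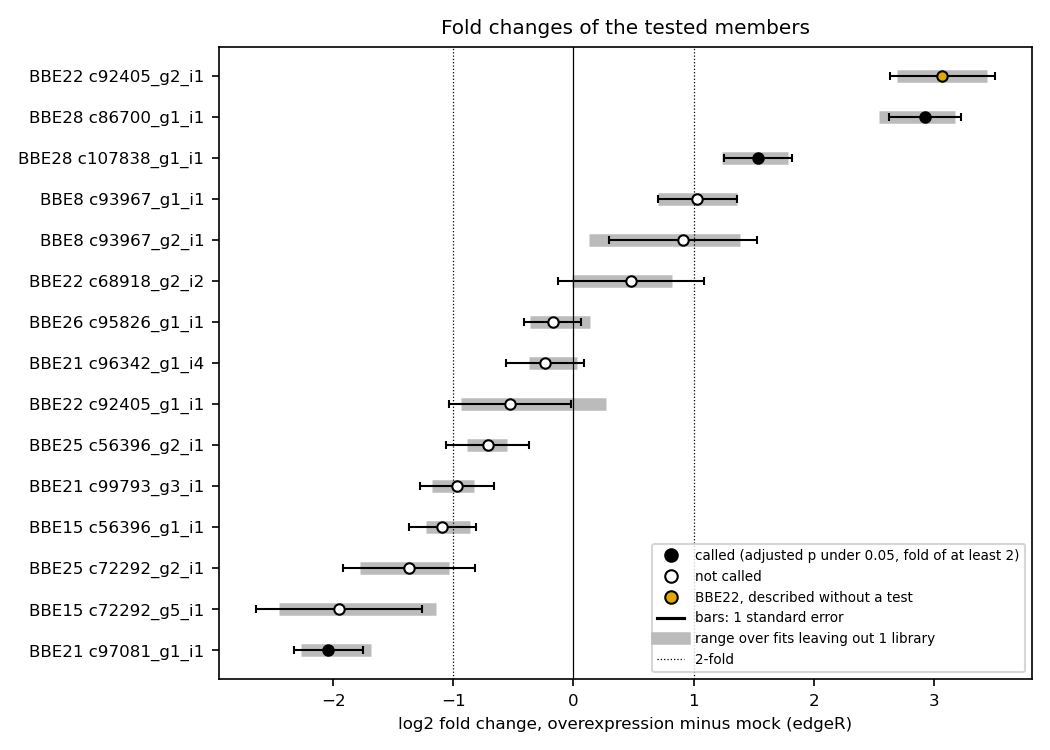
Log2 fold change (overexpression minus mock, edgeR) of each tested member with 1 standard error, over the range of fits that leave out 1 library (grey). Black points passed the test and open points did not. BBE22 (yellow) was chosen by this contrast, so its bar, drawn from the same fit, is not read as a test. The values run from 3.07 for BBE22 to -2.04 for c97081_g1_i1.

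Members with few reads were not tested. The unigenes whose NR match is a tobacco reticuline oxidase-like precursor or a tobacco berberine bridge enzyme-like protein were short and nearly without reads. Of these, c23037_g1_i1 had 1 count in each mock library and 0 in each overexpression library, c64844_g2_i1 had 1 count in mock library 1 and 2 in overexpression library 2, and c64844_g1_i1 had none in any library. The unigene c87570_g3_i1, matched to reticuline oxidase, had 4 counts in mock library 1 and 1 in overexpression library 2. The matches of BBE1 (0, 0 and 1 against 0, 0 and 1) and BBE2 (0, 5 and 1 against 1, 3 and 3), the other oligogalacturonide oxidases, were as low. The 12 members that were not tested had at most 13 counts in any library. They did not pass edgeR's filter, so the main fit gives no result for them in either direction. The rest of these 12 members include c51749_g1_i1 (BBE15), with 1, 3 and 2 counts in mock against 3, 1 and 3 in overexpression. The others, described above, are 3 unigenes of the cluster c72292, c56396_g3_i1 and c68918_g1_i1.

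Since the members differ in length, their levels were compared with each other by the deposited FPKM (fragments scaled to unigene length and library size). The highest mean FPKM in mock was that of c97081_g1_i1 (BBE21), with 62.5 ± 24.1 (SD, n = 3), followed by c107838_g1_i1 (BBE28) with 43.5 ± 7.8, c95826_g1_i1 (BBE26) with 28.1 ± 9.4 and c93967_g1_i1 (BBE8) with 14.9 ± 2.2. The first pair overlapped, since c107838_g1_i1 was above c97081_g1_i1 in mock library 2 and below it in the other mock libraries. In overexpression c107838_g1_i1 led with 137 ± 49 FPKM, followed by c86700_g1_i1 with 49.4 ± 20.9, c93967_g1_i1 with 32.7 ± 15.0, c95826_g1_i1 with 27.1 ± 3.2 and BBE22 with 26.1 ± 13.7. The libraries of c107838_g1_i1 (90.2 to 189 FPKM) lay above those of c86700_g1_i1 (32.2 to 72.6), while each of the following unigenes overlaps its neighbour in this order. BBE22 moved from rank 16 to rank 5 of the 27 members, c86700_g1_i1 from 10 to 2, and c97081_g1_i1 from 1 to 6 with 16.5 ± 2.9 FPKM. The mock ranks above BBE22 and c86700_g1_i1 include short, untested unigenes with few counts, whose FPKM is uncertain. These are c56396_g3_i1 (208 bases) at rank 5 and c72292_g3_i1 (223 bases) at rank 9. Above BBE22 they also include c72292_g1_i1 at rank 11 and c72292_g4_i1 at rank 15, so the size of these moves in rank depends on such unigenes.

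The shares of c97081_g1_i1, c107838_g1_i1, c86700_g1_i1 and BBE22 in the family did not overlap between the groups, while the summed level of the family did. Several other members also had shares that were apart, all lower in overexpression. Among them was c56396_g1_i1, with 3.93, 3.03 and 2.59% in mock against 1.20, 0.912 and 1.12% in overexpression. The FPKM of c107838_g1_i1 was 0.611, 1.11 and 0.554 times that of c97081_g1_i1 in mock and 8.03, 9.64 and 6.58 times that in overexpression. As a share of the summed FPKM of all members, c97081_g1_i1 made up 30.3, 18.8 and 33.0% in mock and 4.98, 4.20 and 6.20% in overexpression. The share of c107838_g1_i1 was 18.5, 20.9 and 18.3% against 40.0, 40.5 and 40.8%. For c86700_g1_i1 it was 3.26, 2.72 and 2.19% against 13.2, 15.6 and 14.6%, and for BBE22 0.994, 1.62 and 1.18% against 8.70, 8.24 and 5.15%. The shares of c95826_g1_i1 and c93967_g1_i1 overlapped. They were 11.3, 10.9 and 14.4% in mock and 7.21, 6.37 and 12.7% in overexpression for c95826_g1_i1 (BBE26). For c93967_g1_i1 (BBE8) they were 8.47, 5.53 and 6.11% against 10.6, 10.02 and 7.63%. Overexpression library 3, the lowest of its group in level for these 3 higher unigenes, had shares close to those of the other overexpression libraries except for BBE22. The summed level of all members did overlap, with 368, 367 and 572 CPM in mock and 550, 762 and 375 CPM in overexpression, a fold of 1.29 between the means. Without BBE22, which was chosen by this contrast, the fold was 1.20. Leaving out 1 library at a time moved the fold of all members between 1.06 and 1.53.

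**Figure D3:**
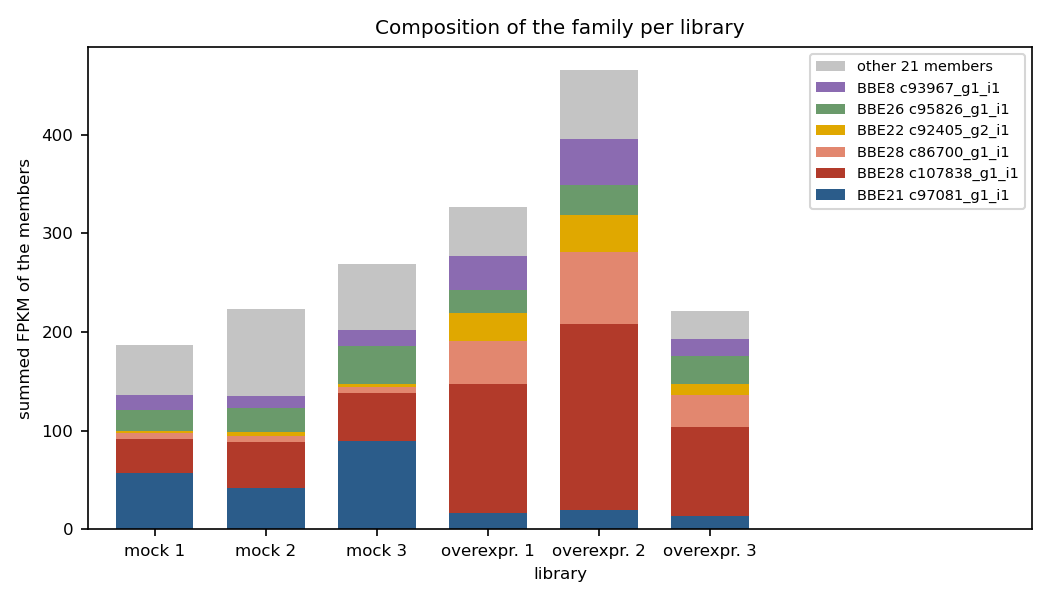
Summed FPKM of the 27 members in each library, split by the 6 unigenes with the highest levels in overexpression and the 21 others. The share of c97081_g1_i1 (BBE21, bottom) is 18.8 to 33.0% in mock and 4.20 to 6.20% in overexpression, and that of c107838_g1_i1 (BBE28) is 18.3 to 20.9% and 40.0 to 40.8%.

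Across all unigenes with a mean of at least 1 CPM, the 5 whose log2(CPM + 1) followed that of BBE22 most closely over the 6 libraries were c76534_g1_i1 (Pearson's r = 0.998), which has no annotation, a membrane protein of ER body-like protein (c94880_g2_i2, 0.997), a mannose/glucose-specific lectin-like protein (c72850_g1_i2, 0.997), MLO-like protein 1 (c80404_g1_i1, 0.996) and a hypothetical protein (c22426_g1_i1, 0.996). These values, over 32954 unigenes compared, are given as a description, since BBE22 separates the 2 groups of libraries and any unigene that does so follows it in part. Among the members, c107838_g1_i1 ranked 15 (r = 0.992) and c86700_g1_i1 ranked 177 (r = 0.972). The neighbour c92405_g1_i1 had r = -0.14.

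Related genes were taken by annotated name. The nicotine and pyridine alkaloid list held 26 unigenes, of which 13 were tested and 1 was called, lower, by edgeR. On the higher side, 2 had an unadjusted p under 0.05, and DESeq2 called 1, an A622-type reductase, and limma-voom 0. The unigene that edgeR called lower, c95353_g1_i1, is named only as a primary amine oxidase by UniProt and NR. Whether it acts in nicotine synthesis was not tested. It had 191, 222 and 108 CPM in mock and 18.1, 12.7 and 49.9 CPM in overexpression (log2 fold change -2.69 ± 0.47, edgeR adjusted p = 0.0116). That call was lost without mock library 1 (0.0579) and without overexpression library 1 (0.0516). Putrescine N-methyltransferase, the root enzyme that commits putrescine to nicotine, had 0 counts in each mock library and 3, 1 and 2 in overexpression. The list labelled benzylisoquinoline-type enzymes had 12 tested unigenes: 3 norcoclaurine synthases, 8 tropinone reductases and a tyrosine decarboxylase. Tropinone reductases are not enzymes of benzylisoquinoline synthesis, so most of the list lies outside that pathway. None of the 12 was called by edgeR, DESeq2 or limma-voom (edgeR's unadjusted p was under 0.05 for 2 of them, both lower). The median log2 fold changes of the 2 lists were -0.06 and 0.12.

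The substrates of BBE22 and BBE21 in *Arabidopsis* are fragments of cellulose and pectin, which other wall enzymes release. Of 38 tested unigenes of endoglucanases and beta-glucosidases, edgeR called 5 lower and 0 higher, with a median log2 fold change of -0.30. On the higher side, 2 had an unadjusted p under 0.05, and DESeq2 called 1 and limma-voom 0. The endoglucanases alone had 3 of 15 lower and a median of -0.95, and the beta-glucosidases 2 of 23 and -0.01. The clearest was endoglucanase 6 (c91816_g1_i1), with 102, 176 and 138 CPM in mock and 27.5, 23.2 and 27.6 CPM in overexpression (log2 fold change -2.41 ± 0.23, edgeR adjusted p = 0.00121). Beta-glucosidase 12 (c87626_g1_i3) fell by 3.71 ± 0.42 (0.00213) and beta-glucosidase 16 (c96111_g2_i6) by 1.56 ± 0.25 (0.00754) on the log2 scale. The NR match of c87626_g1_i3 is a vicianin hydrolase-like protein, so its identity is uncertain. Whether the listed beta-glucosidases act on cellulose fragments was not tested.

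The list for the release of pectin fragments had 39 tested unigenes. They were 26 polygalacturonases, 10 pectate lyases and 3 polygalacturonase inhibitors, which do not themselves release fragments. Of the 39, edgeR called 3 lower and 1 higher, with a median of -0.18. The unigene called higher is among the inhibitors. DESeq2 called 3 lower and 1 higher, and limma-voom 2 lower and 1 higher. Both called pectate lyases belong to the cluster c89875. Of these, c89875_g2_i1 had 7.23, 8.12 and 8.08 CPM in mock and 1.35, 0.513 and 0.664 CPM in overexpression (log2 fold change -3.21 ± 0.37, edgeR adjusted p = 0.00221), and c89875_g1_i1 fell by 2.75 ± 0.50 (0.0129, but 0.0702 without mock library 1 and 0.0558 without overexpression library 2). The unigene called higher was c73187_g1_i1, with 5.48, 15.5 and 11.4 CPM in mock and 39.1, 57.5 and 40.9 CPM in overexpression (log2 fold change 2.09 ± 0.34, adjusted p = 0.00777). Its UniProt match is a polygalacturonase inhibitor, a wall protein that slows pectin breakdown by microbes, while its NR match is a leucine-rich repeat receptor-like kinase, so its identity is uncertain.

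The list of other sources and sinks of hydrogen peroxide, a by-product of many BBE-like enzymes, had 5 of 43 tested unigenes called lower and 0 higher by edgeR, with a median of -0.13. On the higher side, 6 had an unadjusted p under 0.05, and DESeq2 called 1 and limma-voom 0. On the lower side, DESeq2 called 6 and limma-voom 3. Germin-like proteins, extracellular proteins some of which release hydrogen peroxide, made up 3 of the 5 that edgeR called lower and had a median of -0.97 over 11 tested. The germin-like c91627_g2_i1 had 198, 72.5 and 178 CPM in mock and 9.67, 5.35 and 4.79 CPM in overexpression (log2 fold change -4.50 ± 0.42, edgeR adjusted p = 0.00121), and c11318_g1_i1 fell by 2.15 ± 0.31 (0.00521). The NADPH oxidase respiratory burst oxidase homolog E (c100824_g6_i6) had 24.2, 4.32 and 27.0 CPM against 3.09, 3.15 and 1.18 CPM (log2 fold change -2.90 ± 0.62, adjusted p = 0.0252). Its call was lost without mock library 1 (0.105) or 3 (0.0727) and without overexpression library 1 (0.0731) or 2 (0.0685). Of 6 catalases, which remove hydrogen peroxide, 1 was called lower by each of edgeR, DESeq2 and limma-voom (c94192_g3_i2, log2 fold change -1.38, named after its value was seen), and DESeq2 called 1 other higher. No superoxide dismutase (12 tested) and no ascorbate peroxidase (9 tested) was called by edgeR, DESeq2 or limma-voom, and edgeR's unadjusted p was under 0.05 for 4 superoxide dismutases (3 higher, 1 lower) and 1 ascorbate peroxidase.

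Among the other FAD-linked oxidases, 2 of 7 tested unigenes were called, both higher and both matched to cytokinin dehydrogenase 7, which degrades cytokinins. They are c96746_g1_i2, with 2.92, 1.71 and 1.89 CPM in mock and 7.13, 7.76 and 4.20 CPM in overexpression (log2 fold change 1.54 ± 0.35, edgeR adjusted p = 0.0318), and its neighbour c96746_g2_i1 (1.29 ± 0.30, 0.0386), which may be pieces of 1 transcript. Each call was lost without mock library 1 (0.062 and 0.144) or 3 (0.0967 and 0.0976) and without overexpression library 1 (0.107 and 0.104) or 2 (0.130 and 0.150). In this list DESeq2 called 2 higher and limma-voom 1.

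The list for systemic acquired resistance had 6 of 30 tested unigenes called higher and 1 lower by edgeR, with a median of 0.04. DESeq2 called 6 higher and 2 lower, and limma-voom 4 higher and 1 lower. The 10 tested DMR6-type unigenes had 2 called higher and 1 lower by edgeR (2 and 2 by DESeq2) and a median of 0.01. DMR6-like oxygenase 2 (c148354_g1_i1), of a family of enzymes that inactivate salicylic acid, had 5.04, 8.86 and 3.41 CPM in mock and 37.1, 48.1 and 22.0 CPM in overexpression (log2 fold change 2.62 ± 0.38, edgeR adjusted p = 0.00495). ALD1 (c74701_g1_i1), which starts the synthesis of pipecolic acid, rose by 1.44 ± 0.27 on the log2 scale (0.0150, and 0.0726 without mock library 1). DMR6 (c91811_g3_i2) rose by 1.07 ± 0.22 (0.0216), a call that was lost without mock library 1 (0.0954) and overexpression library 1 (0.0976) or 2 (0.072), and without mock library 2, where the log2 fold change was 0.90. All these counts stand beside the 1.92% of tested unigenes called higher and 2.67% called lower.

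**Figure D4:**
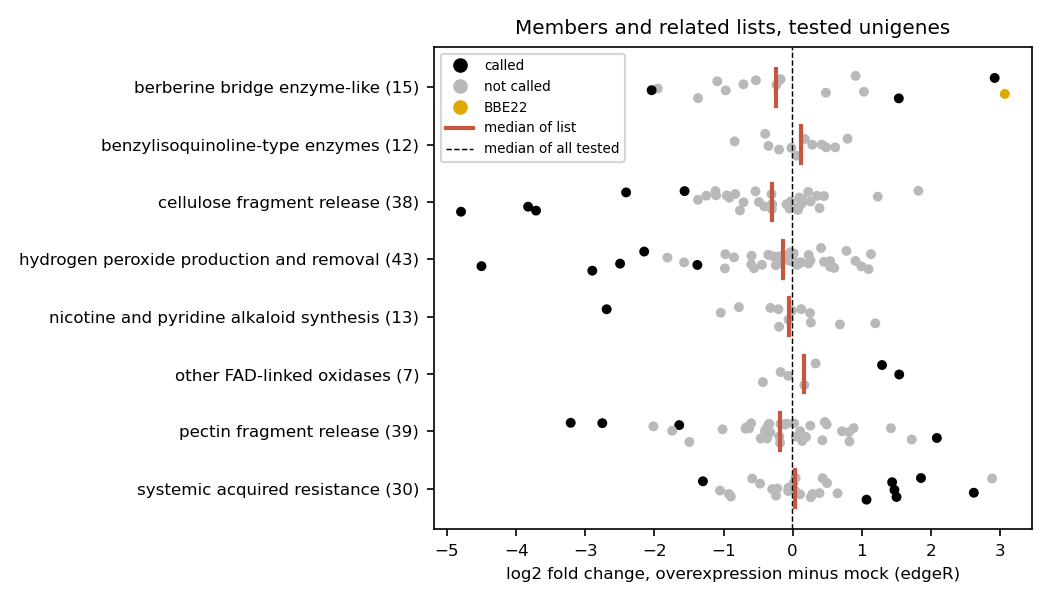
Log2 fold change (overexpression minus mock, edgeR) of the tested unigenes of the family and of each related list, with the number tested in brackets, the list's median as a red bar and the median of all tested unigenes (-0.01) as a dashed line. Black points were called, grey were not; the family has 2 called points on the higher side beside BBE22 and 1 on the lower side.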

How the data were processed

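Poly(A) RNA of leaves was sequenced with a stranded kit in 3 mock and 3 overexpression libraries. Per the study's methods, reads were trimmed (Trimmomatic, discarding those shorter than 36 bp), assembled de novo (Trinity, then CD-HIT-EST against redundancy), mapped back (Bowtie2) and quantified (RSEM) by the authors. The deposited counts per unigene are not normalized and equal the deposited expected counts of all 6 libraries. The deposited FPKM, scaled by the authors to unigene length and library size, served only to compare levels between members. The unigene lengths in bases are as deposited. No genome was used, and no sequence is shown.

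Members and lists were chosen with earlier results of these data known. Glucan endo-1,3-beta-glucosidases were taken out of the beta-glucosidases by name after the values had been seen. The groups were compared with edgeR 4.0.16 in R 4.3.3 (filterByExpr, TMM, glmQLFit, glmQLFTest, Benjamini-Hochberg adjustment over 37201 unigenes, which hold 98.4% of the counts), without covariates. The standard error (SE) of a log2 fold change is its absolute value divided by the square root of the test's F statistic. It therefore restates that test and is not a separate estimate of spread. The scripts were tested on simulated data. The unigenes named are BBE22, all members called, the 5 with the highest mean FPKM, the 3 uncalled with the lowest adjusted p, up to 3 called per related list, and the 5 closest to BBE22. The remaining members were given by their counts. Alternatives were DESeq2 1.42.0, limma-voom (limma 3.58.1), glmTreat against 2-fold, other scalings and filters, the replicate number as a block, each library left out, and other choices of members. Summing unigenes by NR protein and taking members by NR name were added after seeing the data. Libraries are separate pools of plants. Counting error alone does not cover the variation between plants.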

Additional observations from a re-analysis of the deposited data

How the results depend on the processing

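All 3 member calls were kept with limma-voom, DESeq2's size factors, library size alone, at least 1 count in all 6 libraries, at least 1 CPM in 3 libraries and the replicate block. Library size alone moved the median of all unigenes to 0.11 and the calls to 932 higher and 749 lower, and members' values are read relative to it. Replicate numbers did not pair the samples (correlation of deviations -0.112, -0.131 and -0.0926, with 0 libraries closest to their own number), and the replicate block left 1430 unigenes called and a log2 fold change of 2.95 for BBE22. With DESeq2, 2562 unigenes were called, 971 of them higher and 1591 lower, and 3 members higher and 2 lower. With glmTreat, 382 were called (121 higher, 261 lower) and 1 member higher. With no filter, 4201 were called (1615 higher, 2586 lower), with 3 members higher and 3 lower. Taking the members as *Nicotiana* or *Solanum* unigenes with the Pfam domain BBE, which are 4 and do not include BBE22 or any called member, gave 0 higher, 0 lower (DESeq2 and limma-voom also 0, edgeR's unadjusted p under 0.05 for 1 of 3 tested) and a median log2 fold change of -0.71. Summing unigenes by NR protein, chosen after seeing the data, gave 2 members lower and a median of 0.15. Over the fits that leave out 1 library, 669 to 2756 unigenes were called (229 to 1206 higher, 440 to 1550 lower), members called ran from 1 to 3 in each direction, and their median log2 fold change ran from -0.51 to -0.23. The lowest count of calls, 669, came without mock library 1 and the highest, 2756, without overexpression library 3. The cause of these differences was not tested. Depth limits the 12 untested members, and none of these settings reversed a called value.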
